A study of Mus musculus with 6 samples.

Results

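A set of 6 genes of inner ear fluid balance were followed in cochlear duct RNA, namely *Slc26a4*, *Kcnj16*, *Aqp1*, *Aqp4*, *Aqp5* and *Aqp11*. They were selected on their levels in the 6 libraries and on the comparison of genotypes in these same data, and were found by symbol among the 14865 genes listed, and all 6 were present and had enough reads to be tested. The RNA came from mice of strain C57BL/6 at postnatal day 8, in 3 libraries of each genotype. Gfi1cre/+ mice carry 1 allele with Cre recombinase in place of *Gfi1*, so Cre is driven by the *Gfi1* promoter in hair cells and in immune cells of the ear. Gfi1+/+ mice carry 2 intact alleles and no Cre. Each Gfi1+/+ library was made from 1 mouse and each Gfi1cre/+ library from a pool of 3 mice, so a Gfi1cre/+ library is already an average over animals. Genotype and pooling therefore cannot be told apart in any comparison of spread.

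The values are called normalized reads here, and 3 values for a genotype stand in the order of replicates 1, 2 and 3. Each is a whole number of reads counted on a gene, divided by 1 size factor per library. Libraries held between 13603908 and 19359753 reads on genes, and the 6 genes rested on between 215 and 4978 reads per library. Markers of the cochlear duct were present in every library, with *Epcam* between 5189 and 5631 normalized reads and *Otoa* between 7777 and 9717. The sum of 4 Y-linked genes was at most 2.1 normalized reads in the Gfi1+/+ libraries and ran from 794 to 1621 in the Gfi1cre/+ libraries, so sex and genotype cannot be told apart either. *Gfi1* itself had 147, 160 and 152 normalized reads in the single Gfi1+/+ mice and 136, 130 and 139 in the Gfi1cre/+ pools. That count covers the whole gene, and the Cre allele, which lacks the early exons, still gives reads from the later ones, so it does not check the labels by itself. Gfi1+/+ replicate 1 stood apart in nervous tissue genes. The 7 neuron markers summed to 9325 normalized reads there and to between 1822 and 3473 in the other 5 libraries, and this library is named wherever a result rests on it.

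Endolymph, the fluid that bathes the tips of the hair cells, is rich in potassium and low in sodium, and its volume and acidity are held by the epithelium around it. Pendrin, the product of *Slc26a4*, exchanges chloride for bicarbonate at the apical face of outer sulcus, root and spindle cells, and its loss leads to a swollen, acidified endolymph and deafness in mice and to Pendred syndrome in people. Kir5.1, the product of *Kcnj16*, is a potassium channel subunit that works together with Kir4.1 (*Kcnj10*). Aquaporins are tetrameric water channels. AQP1 is known from fibrocytes and mesenchyme around the duct, AQP4 from supporting cells of the sensory epithelium and from astrocytes, and AQP5 from outer sulcus cells, while AQP11 lies in internal membranes.

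The start regions of 2 genes are shown, that of *Slc26a4* because it alone held a TATA box close before the start, and that of *Aqp5* because it was the richest in CG dinucleotides. The sequences are from RefSeq (GRCm38.p6), which gave 8 windows of 250 bases before and 50 bases after a start for 5 of the 6 genes. GFI1 is a repressor that binds DNA, so its core letters AATCAC were searched on both strands, together with the TATA box letters TATAAA, which do not overlap them. Capitals mark a match. The *Slc26a4* window is chr12:31559935-31560234 on the minus strand, and the *Aqp5* window is chr15:99590778-99591077 on the plus strand. In the annotation used for lengths (GENCODE M21), *Aqp5* begins at 99590782, so nearly all of its window lies inside the gene there.
Slc26a4: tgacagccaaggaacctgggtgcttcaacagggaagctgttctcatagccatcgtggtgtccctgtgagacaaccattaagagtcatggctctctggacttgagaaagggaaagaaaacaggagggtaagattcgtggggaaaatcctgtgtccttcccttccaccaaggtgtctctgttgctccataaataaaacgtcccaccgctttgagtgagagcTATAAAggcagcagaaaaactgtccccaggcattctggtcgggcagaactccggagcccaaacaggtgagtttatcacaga
Aqp5: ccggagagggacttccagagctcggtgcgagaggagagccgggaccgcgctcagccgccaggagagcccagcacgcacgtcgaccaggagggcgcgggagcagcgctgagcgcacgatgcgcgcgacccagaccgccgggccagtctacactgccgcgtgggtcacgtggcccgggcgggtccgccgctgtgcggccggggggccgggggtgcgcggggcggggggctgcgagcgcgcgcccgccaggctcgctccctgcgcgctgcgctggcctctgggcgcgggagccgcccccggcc

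The *Slc26a4* window held TATAAA on the gene's own strand, beginning 31 bases before the start, where 2.32% of all 32851 windows have these letters between 50 and 16 bases before the start. It had 6 CG dinucleotides. The *Aqp5* window held neither motif and had 46 CG dinucleotides, more than 98.4% of all windows, with 79.7% G and C. The window of *Aqp11* had 27 CG dinucleotides, and that of *Aqp1* had 8 beside a median of 7 over all windows. *Kcnj16* has 4 annotated start windows, of which 1 held TATAAA and the others neither motif. AATCAC was found in none of the 8 windows, while 10.4% of all windows hold it on either strand. A match or its absence describes these letters only.

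Compared per length, the 6 genes covered a wide range. A level per length is the normalized reads per kilobase of merged exons, scaled to the same total over genes in every library. *Aqp1* was the highest, at 286 ± 40.3 (SD, n = 6 libraries of both genotypes), above 96.6% of the listed genes. *Kcnj16* followed at 87.7 ± 20.9 and *Slc26a4* at 71.7 ± 9.28, and these neighbours overlapped, since *Kcnj16* ran from 59.6 to 123 and *Slc26a4* from 58.3 to 80.4. *Aqp5* had a level per length of 21.6 ± 3.07. *Aqp11* stood at 14.2 ± 0.177 and *Aqp4* at 8.58 ± 3.81, with overlap between them because *Aqp4* reached 16.3 in Gfi1+/+ replicate 1 and at most 7.85 elsewhere. The order of *Aqp5* and *Aqp11* depended on the gene model. Merged exons of *Aqp11* come to 9418 bases and include a retained intron. With the longest protein-coding transcript, used for the 6 genes only and without scaling anew, *Aqp11* had 35.7 and *Aqp5* 31.3. That choice of length followed a look at the values.

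**Figure D1:**
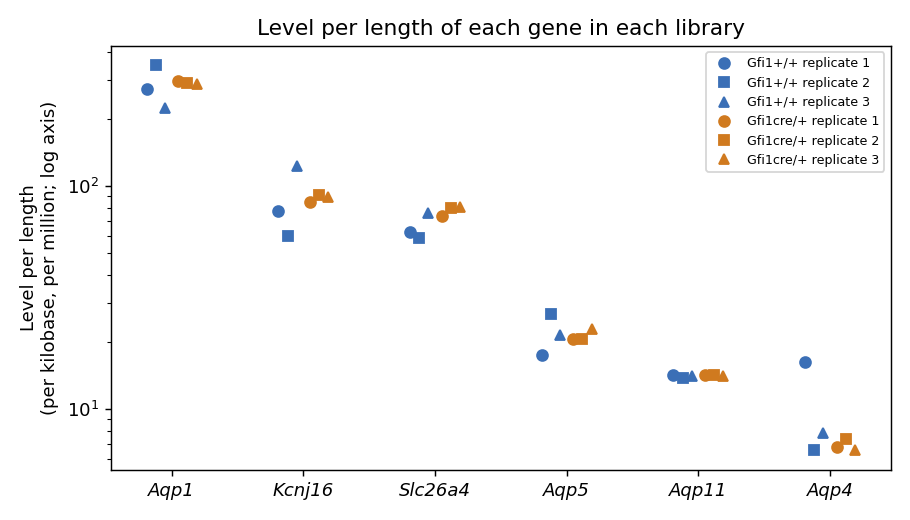
Level per length of the 6 genes (normalized reads per kilobase of merged exons, scaled to 1 total; log axis) in each of the 3 Gfi1+/+ (blue) and 3 Gfi1cre/+ (orange) libraries. *Aqp1* lies above all others in every library, *Kcnj16* and *Slc26a4* overlap, and *Aqp4* is highest in Gfi1+/+ replicate 1 at 16.3.

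The question put to each gene was whether its RNA differed between the genotypes. The genes were picked with this contrast known, so their differences are given as a description, with no p-value printed for any of them. Counts at a threshold are given only to stand beside the share over all genes. In limma's test on log2(normalized reads + 1) over 14455 genes, 0 of the 6 genes passed an adjusted p-value (Benjamini-Hochberg) of 0.05, which was reached by 4 of all genes, or 0.0277%, and these were the 4 Y-linked genes. Likewise 0 of the 6 had a fold change over 2 together with an unadjusted p-value under 0.05, as 0.47% of all genes did. At that p-value alone, which 3.04% of all genes reached, there was 1 of the 6, *Slc26a4*, on the higher side (1.02% of all genes) and 0 on the lower side (2.02%). That 1 gene became 0 without Gfi1+/+ replicate 1, Gfi1cre/+ replicate 2 or Gfi1cre/+ replicate 3 and without the trend, and 2 genes without Gfi1+/+ replicate 3. Since the contrast was used in the selection, nothing is read from these counts. edgeR and DESeq2 on the recovered reads each called 0 of the 6 after adjustment and 1 without it. In 7.52% of all genes tested the libraries of the genotypes did not overlap, and in each of the 6 genes they did overlap. The median difference of the 6 genes was 0.0035 on the log2 scale and that of all genes was -0.000116.

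*Slc26a4* (ENSMUSG00000020651) is a minus strand gene (GRCm38, chromosome 12, 31519827 to 31559969), and its longest transcript of 3075 bases has 21 exons. It had 1137, 1020 and 1294 normalized reads in the single Gfi1+/+ mice. In the Gfi1cre/+ pools it had 1271, 1337 and 1382. Gfi1cre/+ replicate 1 lay just under Gfi1+/+ replicate 3, and the other Gfi1cre/+ libraries were above all Gfi1+/+ libraries. The means were 1330 ± 56.1 in Gfi1cre/+ and 1150.3 ± 138 in Gfi1+/+ (SD, n = 3), with a log2 difference of 0.22 (standard error 0.0856). Over the fits that left out 1 library the difference lay between 0.13, without Gfi1+/+ replicate 2, and 0.30, without Gfi1+/+ replicate 3. In bulk RNA, fewer cells of a type and less RNA per cell cannot be told apart, here and in all other values.

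Outer sulcus and root cells, the main home of pendrin in the cochlea, were also followed through 3 other genes, for which no difference passed the test. *Epyc*, a matrix proteoglycan, had between 26294 and 31674 normalized reads in Gfi1+/+ and between 27900 and 28693 in Gfi1cre/+. The log2 differences were -0.01 for *Epyc*, 0.03 for *Anxa1* and -0.05 for *Bmp4* (standard errors 0.0839, 0.0657 and 0.0617), and limma gave 0.999 as the adjusted p-value of all 3.

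*Kcnj16* (ENSMUSG00000051497, chromosome 11, plus strand, 110968033 to 111027968) had nearly the same mean in the 2 genotypes. It had 1779, 1320 and 2656 normalized reads in the single Gfi1+/+ mice and 1869, 1932 and 1954 in the Gfi1cre/+ pools. Both the lowest and the highest library were Gfi1+/+, 2.01-fold apart, and the Gfi1cre/+ libraries lay between them, within 1.05-fold of each other. The means were 1918 ± 679 and 1918 ± 43.8 (SD, n = 3), and the log2 difference was 0.06 (standard error 0.201). Leaving out Gfi1+/+ replicate 2 turned it to -0.18 and leaving out Gfi1+/+ replicate 3 to 0.32, so 1 mouse decided its sign.

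The partner subunit gene *Kcnj10* shared both extremes with *Kcnj16*, over a narrower range. It had 3725, 3236 and 4415 normalized reads in the single Gfi1+/+ mice and 3628, 3763 and 3801 in the Gfi1cre/+ pools. Per length, *Kcnj10* stood above *Kcnj16* by a ratio of 1.52, 1.78 and 1.21 in the single Gfi1+/+ mice. In Gfi1cre/+ the ratio was 1.42 ± 0.00262 (SD, n = 3), so the proportion of the 2 subunit genes varied little between pools. The log2 difference of *Kcnj10* was -0.01 (standard error 0.0994, adjusted p = 0.999 in limma's test).

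Markers of bone, as a sum, had the same order of libraries as *Kcnj16*. From its lowest to its highest library, *Kcnj16* ran through Gfi1+/+ replicate 2, Gfi1+/+ replicate 1, Gfi1cre/+ replicates 1, 2 and 3 and Gfi1+/+ replicate 3. The sum of 6 bone markers took the identical order, from 22989 through 27580, 37588, 39574 and 41805 to 50545 normalized reads. The Gfi1cre/+ values of *Kcnj16* lay within 1.05-fold of each other, so their order says little. Taken singly, 5 of the 6 bone markers were highest in Gfi1+/+ replicate 3, and *Col1a1* was highest in Gfi1cre/+ replicate 2. Of 6 fibrocyte and mesenchyme markers, 1 was highest in Gfi1+/+ replicate 3. This was *Otos*, with 46380.5 normalized reads there and its lowest value, 27926, in Gfi1+/+ replicate 2. *Otor* and *Car3* of the same list went the other way, with their lowest values, 38982 and 64888, in Gfi1+/+ replicate 3. The sum of the 6 markers was 209151, 191125 and 175666 in the single Gfi1+/+ mice. The part of bone or fibrocyte RNA in the *Kcnj16* values was not tested.

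*Aqp1* (ENSMUSG00000004655, chromosome 6, plus strand, 55336432 to 55348555) varied between Gfi1+/+ mice in the opposite direction. It had 4189, 5148 and 3210 normalized reads in the single Gfi1+/+ mice. In the Gfi1cre/+ pools it had 4333, 4113 and 4159. It was thus highest in the mouse with the least *Kcnj16* and lowest in the mouse with the most. Per length, *Aqp1* stood above *Kcnj16* by a ratio of 5.84 in Gfi1+/+ replicate 2 and 1.81 in Gfi1+/+ replicate 3, while the ratio was 3.28 ± 0.163 in Gfi1cre/+ (SD, n = 3). The means of *Aqp1* were 4201 ± 116 in Gfi1cre/+ and 4182 ± 969 in Gfi1+/+ (SD, n = 3), the log2 difference was 0.03 (standard error 0.141), and it was -0.14 when Gfi1+/+ replicate 3 was left out and 0.20 when Gfi1+/+ replicate 2 was.

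AQP1 is also abundant in red blood cells and in the lining of small vessels, so markers of both stand beside it. The 9 erythroid markers summed to between 29478 and 43837 normalized reads in Gfi1+/+ and between 38358 and 66386 in Gfi1cre/+. In limma's test 9 of 9 had an unadjusted p-value under 0.05 on the higher side, as 1.02% of all genes did, and none passed adjustment. They mark 1 cell type, so they are not 9 separate results. The sum of 38358 in Gfi1cre/+ replicate 3 was below those of Gfi1+/+ replicates 2 and 3. *Aqp1* was highest in Gfi1+/+ replicate 2, where the erythroid sum was 40206. The 9 endothelial markers summed to between 8364 and 9067 in Gfi1+/+ and between 8358 and 9499 in Gfi1cre/+. The 6 fibrocyte and mesenchyme markers, of another known site of AQP1, summed to 209151, 191125 and 175666 in the single Gfi1+/+ mice. In the Gfi1cre/+ pools the sum was between 175225 and 210576. *Otor* and *Car3* were lowest in Gfi1+/+ replicate 3, like *Aqp1*, while *Otos* was highest there. Of the 6 markers, 0 were highest in Gfi1+/+ replicate 2. The part of red blood cells, vessels, fibrocytes or any other cell type in the *Aqp1* values was not tested.

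*Aqp5* (ENSMUSG00000044217, chromosome 15, plus strand, 99590782 to 99594829) had 265, 391 and 307 normalized reads in the single Gfi1+/+ mice. It had 299, 288 and 328 in the Gfi1cre/+ pools, all inside the range of the Gfi1+/+ mice. Like *Aqp1* it was highest in Gfi1+/+ replicate 2. The means were 305 ± 21.1 in Gfi1cre/+ and 321 ± 63.7 in Gfi1+/+ (SD, n = 3), with a log2 difference of -0.06 (standard error 0.132) that turned to 0.09 without Gfi1+/+ replicate 2 and was -0.19 without Gfi1+/+ replicate 1. Although AQP5 and pendrin share outer sulcus cells as a known site, the 2 genes did not keep 1 proportion between mice. Per length, *Aqp5* stood to *Slc26a4* as 0.458 in Gfi1+/+ replicate 2, against 0.279 and 0.284 in the other Gfi1+/+ mice and 0.274 ± 0.0147 in Gfi1cre/+ (SD, n = 3).

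*Aqp11* (ENSMUSG00000042797, chromosome 7, minus strand, 97724006 to 97738289) was the steadiest of the 6 genes. It had 790, 733 and 728 normalized reads in the single Gfi1+/+ mice and 752, 720 and 738 in the Gfi1cre/+ pools. The 6 libraries lay within 1.10-fold of each other. The log2 difference was -0.03 (standard error 0.0598), and it was 0.01 without Gfi1+/+ replicate 1.

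**Figure D2:**
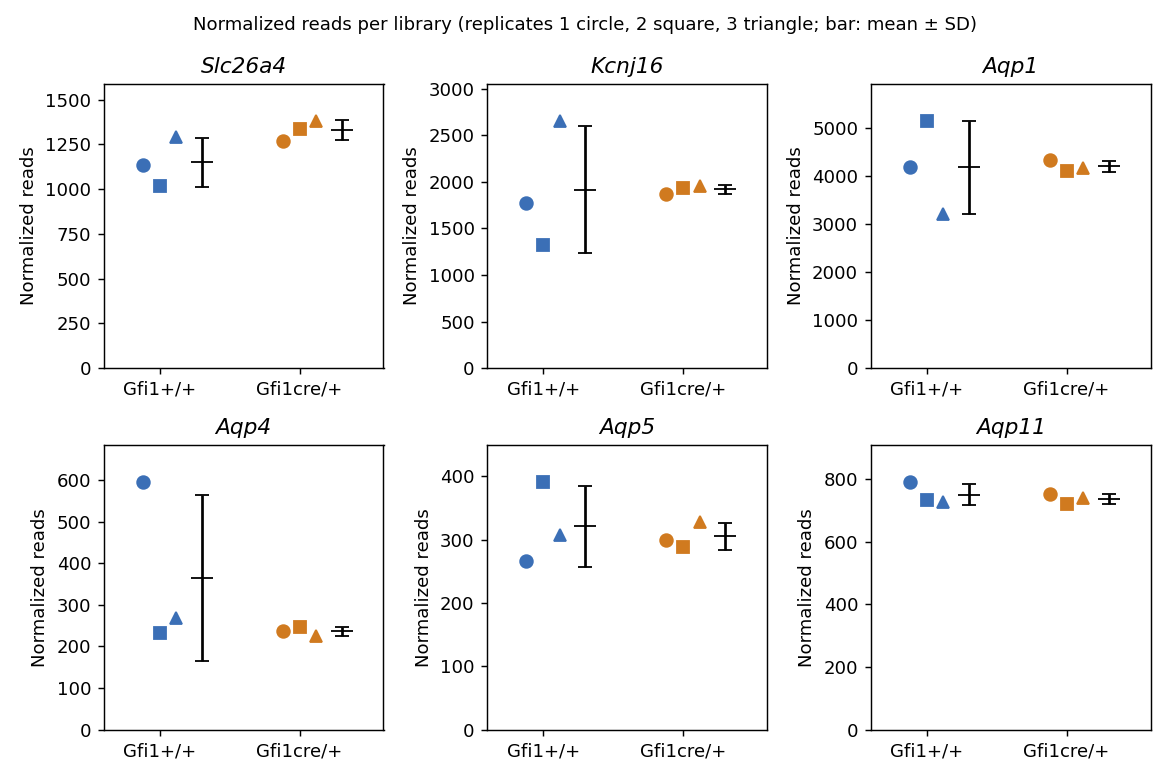
Normalized reads of each of the 6 genes in the 3 Gfi1+/+ (blue) and 3 Gfi1cre/+ (orange) libraries, with the mean ± SD in black; all axes start at 0. The single mice of Gfi1+/+ spread further than the pools of Gfi1cre/+ in all 6 genes, and *Aqp4* has 1 library, Gfi1+/+ replicate 1, at 595.

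*Aqp4* (ENSMUSG00000024411) is a minus strand gene (chromosome 18, 15389496 to 15410982) and showed the widest range. It had 595, 231 and 268 normalized reads in the single Gfi1+/+ mice and 237, 248 and 226 in the Gfi1cre/+ pools. Gfi1+/+ replicate 1 was thus alone, and the other 5 libraries lay together. The means were 237 ± 11.1 in Gfi1cre/+ and 365 ± 200.2 in Gfi1+/+ (SD, n = 3). The log2 difference of -0.49 (standard error 0.291) rested on that mouse, for it was -0.07 without Gfi1+/+ replicate 1, while leaving out Gfi1+/+ replicate 2 gave -0.75.

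Genes of central nervous system glia were high in the same library as *Aqp4*. The lists of astrocyte and oligodendrocyte markers were written after this pattern had been seen, and are given as values only. The share of all genes that are highest in this library is not given here, so counts of markers highest there have no background. Among 10 astrocyte markers, 8 were highest in Gfi1+/+ replicate 1. *Ntsr2*, a receptor gene typical of astrocytes, had 81.5 normalized reads there, 2.61 in Gfi1cre/+ replicate 1 and 0 in the other 4 libraries, where a count of 0 allows up to 3 reads, or between 2.66 and 3.16 normalized reads (counting error only). *Gfap*, the intermediate filament of astrocytes, had 307 there and between 69.8 and 123 elsewhere. The summed astrocyte list did not stand apart, at between 33688 and 44337 in Gfi1+/+ and between 39895 and 45414 in Gfi1cre/+, since most of its reads were of *S100b*, which the cochlea makes in plenty.

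Oligodendrocytes, the myelin makers of the brain, were represented by 7 listed markers. Of these, 6 were highest in Gfi1+/+ replicate 1. *Mobp*, a myelin gene, had 2235 normalized reads there and between 4.19 and 27.0 in the other 5 libraries. The myelin gene *Mog* had 232 there and at most 3.55 elsewhere. The lineage factor gene *Olig1* had 460 and at most 15.98 elsewhere. The sum of the list was between 9918 and 15163 in Gfi1+/+ and between 10530 and 11376 in Gfi1cre/+, most of it *Cldn11*, a gene that basal cells of the stria also use and the 1 marker that was not highest in that mouse. The part of these cells in the *Aqp4* value was not tested, and without that library the 5 others ran from 226 to 268.

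The dystrophin complex holds AQP4 in the membrane. Of 12 genes tested, 0 passed adjustment in limma's test and 0 had an unadjusted p-value under 0.05, with 8 higher and 4 lower in Gfi1cre/+ and a median log2 difference of 0.03. *Mlc1*, a membrane protein gene of astrocyte endfeet written in the same list, was high in the same library as *Aqp4*, with 276 normalized reads in Gfi1+/+ replicate 1 and between 35.6 and 55.7 in the others. *Dag1*, for dystroglycan, was the most abundant per length, at 188, with a log2 difference of 0.04.

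**Figure D3:**
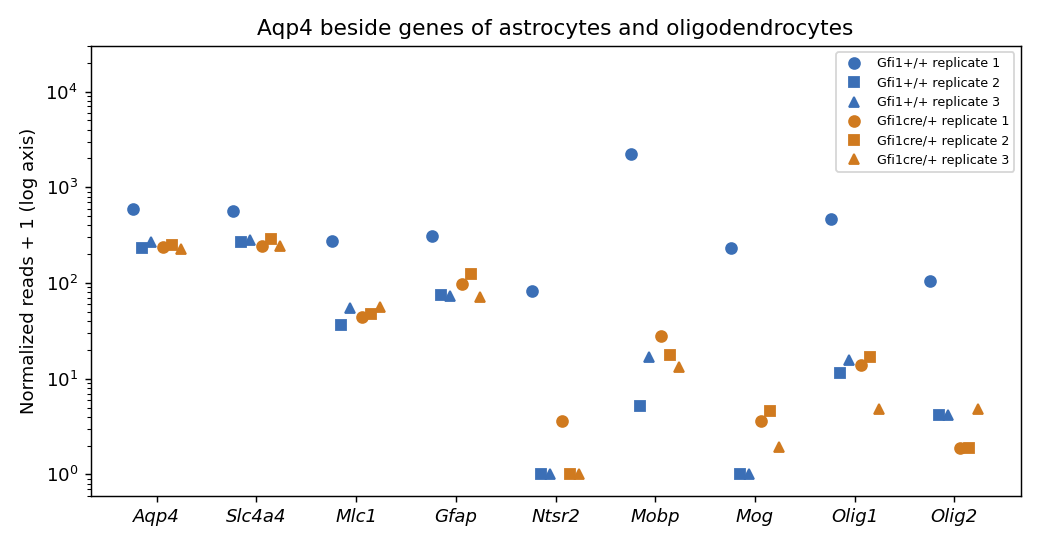
Normalized reads plus 1 (log axis) of *Aqp4*, *Slc4a4*, *Mlc1*, the astrocyte genes *Gfap* and *Ntsr2* and the oligodendrocyte genes *Mobp*, *Mog*, *Olig1* and *Olig2* in the 3 Gfi1+/+ (blue) and 3 Gfi1cre/+ (orange) libraries. Gfi1+/+ replicate 1 (blue circle) is the highest library for all 9 genes, with *Aqp4* at 595 and *Mobp* at 2235 normalized reads.

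For each of the 6 genes, the spread between single Gfi1+/+ mice was wider than that between Gfi1cre/+ pools. On the log2 scale the SD ran from 0.0655 for *Aqp11* to 0.731 for *Aqp4* in Gfi1+/+, and from 0.0315 for *Aqp11* to 0.0982 for *Aqp5* in Gfi1cre/+. For *Kcnj16* the SD was 0.506 against 0.0331 and for *Aqp1* 0.342 against 0.0395. Over all genes tested the median SD was 0.119 in Gfi1+/+ and 0.0737 in Gfi1cre/+, and 71.2% of genes had the wider spread in Gfi1+/+. All 6 genes were on that side, and except for *Aqp11* their Gfi1+/+ spread was above the median.

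**Figure D4:**
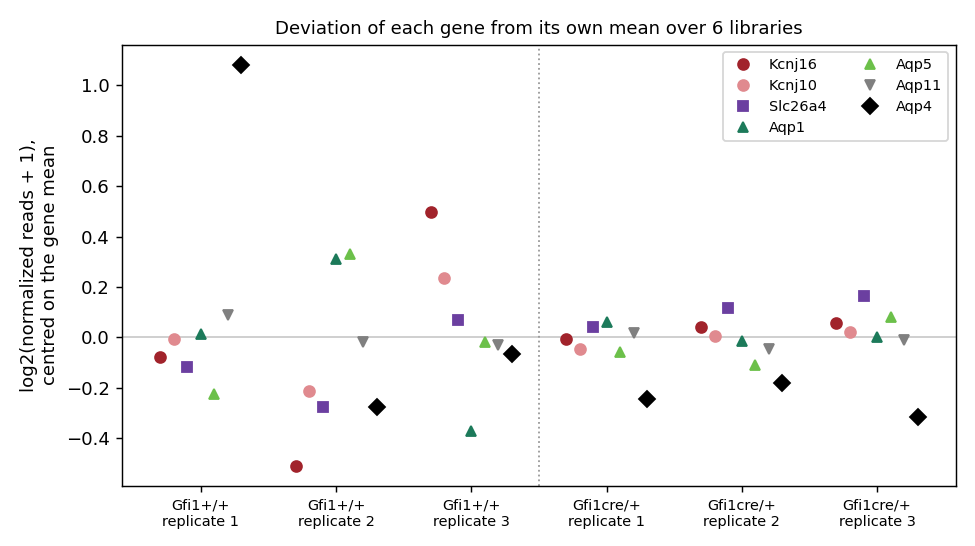
Deviation of log2(normalized reads + 1) from the mean of the gene over 6 libraries, for the 6 genes and *Kcnj10*. Among the Gfi1+/+ mice, *Kcnj16* and *Kcnj10* are lowest in replicate 2 and highest in replicate 3 while *Aqp1* does the reverse, and *Aqp4* is far above its mean only in replicate 1; the Gfi1cre/+ libraries hold each gene within a narrow band.

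The genes most like each of the 6 were sought among the 10365 tested genes whose mean reached 200 normalized reads. Likeness was the root mean square difference of centred log2 values over the 6 libraries, where a small value means that the deviations of 2 genes lie close together, also when both are nearly flat, and with so many genes close matches arise for any pattern. For *Aqp4* the nearest were *Hap1*, a neuronal trafficking gene, at 0.0875, and *Slc4a4*, a sodium bicarbonate cotransporter gene also used by astrocytes, at 0.0971. *Slc4a4* had 565 normalized reads in Gfi1+/+ replicate 1 and between 243 and 286 elsewhere. For *Kcnj16* they were *Pik3cd* at 0.0538 and *Col13a1*, a transmembrane collagen gene, at 0.0608. *Aqp1* was nearest to *Clec3a*, a cartilage lectin gene, at 0.0369, and to *Scg2* at 0.0419. *Slc26a4* was nearest to *Nuak1* at 0.0252 and *Zfp553* at 0.0371, *Aqp5* to *Dusp4* at 0.0286 and *Arhgap19* at 0.0404, and *Aqp11* to *Aamdc* at 0.0111 and *Eif2b1* at 0.0122.

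Related genes of ion and water transport were tested as a wider background. Of 91 genes written in 7 lists, 59 were tested, and 0 passed adjustment in limma's test. At an unadjusted p-value under 0.05 there were 2 of 59, or 3.39%, beside 3.04% of all genes, and edgeR and DESeq2 each gave 0 after adjustment and 1 at an unadjusted p-value under 0.05. The count rested on single libraries. It was 14 without Gfi1+/+ replicate 3, when 2335 of all genes passed that threshold, 5 without Gfi1+/+ replicate 2, 1 without Gfi1+/+ replicate 1 or Gfi1cre/+ replicate 2, and 0 without Gfi1cre/+ replicate 1 or 3. The 8 other aquaporin genes of the lists were not analysed here.

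Among the other SLC26 anion transporters, 6 genes were tested, 3 higher and 3 lower in Gfi1cre/+, none with an unadjusted p-value under 0.05. The most abundant per length was *Slc26a11*, at 24.2, which had between 467 and 476 normalized reads in Gfi1+/+ and between 494 and 513 in Gfi1cre/+ (log2 difference 0.10, standard error 0.0594, adjusted p = 0.999 in limma's test). *Slc26a4*, at 71.7, stood above it. Of the other inward rectifier channels, 2 of 6 were higher and 4 lower, and *Kcnj10* led them at a level per length of 125.

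Acid and bicarbonate handling was followed through 17 tested genes, 12 higher and 5 lower in Gfi1cre/+, with a median log2 difference of 0.04. The gene with an unadjusted p-value under 0.05 was *Slc4a7*, a sodium bicarbonate cotransporter gene, which had 338, 343 and 310 normalized reads in the single Gfi1+/+ mice and 284, 295 and 301 in the Gfi1cre/+ pools. Its log2 difference was -0.17 (standard error 0.0752, adjusted p = 0.999 in limma's test). Carbonic anhydrases were the most abundant of the list per length, with *Car14* at 334 and *Car2* at 323, and *Car2* had a log2 difference of 0.08 (standard error 0.0659). Of the proton pump subunits, *Atp6v0a4* had between 1017 and 1264 normalized reads in the 6 libraries (log2 difference -0.08). *Atp6v0d2*, for another subunit, had 20.98, 73.3 and 26.4 normalized reads in the single Gfi1+/+ mice and 59.2, 66.6 and 70.8 in the Gfi1cre/+ pools, which overlapped, with a log2 difference of 0.90 (standard error 0.404, adjusted p = 0.999 in limma's test). For *Atp6v1c2* the log2 difference was 0.04 (standard error 0.0922). *Atp6v1b1*, the partner of *Atp6v0a4* in kidney and endolymphatic sac, had between 4.22 and 14.7 and was under the minimum for testing, and *Foxi1*, the factor known to drive *Atp6v0a4*, *Atp6v1b1* and *Slc26a4* in the endolymphatic sac, was not analysed here.

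Sodium absorption, which keeps endolymph sodium low, was followed through 15 genes, 13 higher and 2 lower in Gfi1cre/+. The median log2 difference was 0.05, beside -0.000116 over all genes. Of the 15 genes, 11 had their highest library in Gfi1+/+ replicate 3 and 2 in Gfi1+/+ replicate 2. Only 1 was highest in each of Gfi1cre/+ replicates 1 and 3. For the 11 genes, a higher mean in Gfi1cre/+ thus goes with lower values in other Gfi1+/+ mice. The share of all genes that are highest in each library is not given here, so nothing more is read from these counts. The gene with an unadjusted p-value under 0.05 was *Prss8*, for prostasin, a protease that activates the epithelial sodium channel. It had 1886, 1978 and 1988 normalized reads in the single Gfi1+/+ mice and 2136, 2106 and 2186 in the Gfi1cre/+ pools without overlap, and its log2 difference was 0.14 (standard error 0.051, adjusted p = 0.999 in limma's test). The channel subunit gene *Scnn1a* had between 101 and 145 normalized reads in Gfi1+/+ and between 115 and 137 in Gfi1cre/+.

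**Figure D5:**
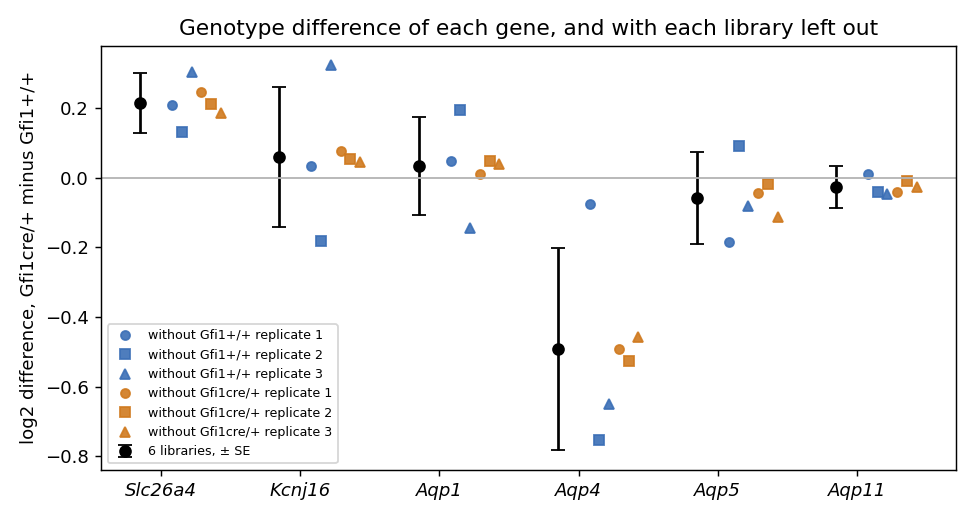
log2 difference of each gene, Gfi1cre/+ minus Gfi1+/+, from all 6 libraries (black, ± SE) and with each library left out (blue, a Gfi1+/+ library; orange, a Gfi1cre/+ library). *Slc26a4* stays above 0 in all fits, *Aqp4* moves from -0.49 to -0.07 without Gfi1+/+ replicate 1, and *Kcnj16*, *Aqp1*, *Aqp5* and *Aqp11* each cross 0 without 1 Gfi1+/+ mouse.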

How the data were processed

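Cochlear duct RNA of 3 Gfi1+/+ and 3 Gfi1cre/+ libraries was analysed from 1 table. Per the labels and methods, the authors made polyA libraries with a TruSeq kit, aligned reads to mm10 with TopHat, kept unique alignments, counted them per gene with HTSeq and set a minimum of 40 reads per gene. Annotation, strand setting and versions are not given in the sources used here. The deposited values are a signal described as quantile-normalized. They were whole multiples of 1 step per column in 100% of values (tolerance 0.02 of a step beside rounding), that is, read counts divided by a size factor. Column names gave the genotype and number of each sample.

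The tests covered 14455 of 14865 genes, those reaching 40 normalized reads in 1 library or more, with limma (version 3.58.1, R 4.3.3) on log2(value + 1), a scale that understates changes of low genes, in a two-sided test of genotype alone, with eBayes and its trend option. edgeR's quasi-likelihood test (4.0.16) and DESeq2 (1.42.0) ran on the recovered reads. Lengths and positions came from GENCODE M21 on GRCm38, to which 14791 identifiers matched. No exon of the 6 genes overlapped an exon of another annotated gene. The steps were tested on simulated counts. The 6 genes rested on 215 or more reads per library, and several other genes named on far fewer. A p-value sets a difference of means against the spread between these libraries, which joins single Gfi1+/+ mice with Gfi1cre/+ pools. The 6 genes, the lists, the likeness rule and the named genes (the 6 genes, fixed partners, list members with an unadjusted p-value under 0.05, the most abundant member per list and the 2 nearest genes by likeness) were chosen with earlier results of these data known. *Atp6v0d2*, *Atp6v1c2*, *Slc26a11*, *Gfap* and the other glial genes were named after their values were seen. Results of 2 members of the lists that the naming rule or their values would have brought in are not reported here.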

Additional observations from a re-analysis of the deposited data

How the results depend on the processing

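Alternatives were pseudocounts of 0.1 and 10, other minima, quantile normalization, no trend, edgeR, DESeq2, the replicate number as a block and each library left out. The log2 differences of the 6 genes moved by less than 1 residual SD of the main fit in all of them. With 3 libraries per genotype, leaving out 1 library cannot move a difference that far. Without the trend, with other minima and with the block, the estimate stays the same by construction. Nothing is therefore read from that limit for those fits. With 1 library left out the log2 differences ranged from 0.13 to 0.30 for *Slc26a4*, -0.18 to 0.32 for *Kcnj16*, -0.14 to 0.20 for *Aqp1*, -0.75 to -0.07 for *Aqp4*, -0.19 to 0.09 for *Aqp5* and -0.05 to 0.01 for *Aqp11*. Libraries with the same number did not deviate together (r = -0.0944, 0.107 and -0.0326 across genes), and with the replicate block 4 genes passed adjustment and 2 of the related genes had an unadjusted p-value under 0.05, as without it.

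Genes at an adjusted p-value under 0.05 numbered 4. They were 0 with a mean of at least 200, 10 in DESeq2 and between 0 (without Gfi1cre/+ replicate 2 or 3) and 48 (without Gfi1+/+ replicate 3), with 8 without Gfi1+/+ replicate 2. The minimum of 200 removed the Y-linked gene *Ddx3y* before the test, since its means were 0 in Gfi1+/+ and 335 in Gfi1cre/+. Genes over 2-fold apart that also had an unadjusted p-value under 0.05 numbered 68 (0.47%). They were 12 with a mean of at least 200, 40 without a trend, 155 in edgeR, 147 in DESeq2 and between 18 (without Gfi1+/+ replicate 1) and 184 (without Gfi1+/+ replicate 3), with 22 and 36 without Gfi1cre/+ replicates 1 and 2. The 2 related genes at an unadjusted p-value under 0.05 became 1 with all listed genes tested, with a mean of at least 200, in edgeR and in DESeq2, 3 with quantile normalization, and between 0 and 14 with 1 library left out. The cause was not tested. The length of the longest transcript was used for all genes, and the levels were scaled anew to the same total. The level per length was then 58.6 for *Slc26a4*, 231 for *Aqp1*, 25.3 for *Aqp5* and 18.6 for *Aqp11*. The longest protein-coding transcript, chosen after the values had been seen, was used for the 6 genes only, without scaling anew. It gave 31.3 for *Aqp5* and 35.7 for *Aqp11*, which are not on the scale of the longest-transcript levels. With 1 library left out the levels ranged from 70.0 to 74.4 for *Slc26a4*, 80.5 to 93.3 for *Kcnj16*, 274 to 299 for *Aqp1*, 7.03 to 8.98 for *Aqp4*, 20.6 to 22.5 for *Aqp5* and 14.1 to 14.2 for *Aqp11*.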

Other observations

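Genes for the purinergic and hormonal control of endolymph sodium were also measured. *P2rx2*, an ATP-gated channel gene of the cochlea, had 1850.3, 1513 and 2163 normalized reads in the single Gfi1+/+ mice and 1871, 1775 and 1880.4 in the Gfi1cre/+ pools, so that, like *Kcnj16*, it was lowest and highest in Gfi1+/+ replicates 2 and 3. The receptor genes *Nr3c1*, for glucocorticoids, and *Nr3c2*, for mineralocorticoids, had log2 differences of 0.00 and 0.05 (standard errors 0.0494 and 0.0741). *Slc4a11*, a transporter gene of fibrocytes, had 75.3, 62.8 and 156 normalized reads in the single Gfi1+/+ mice and 131, 111 and 109 in the Gfi1cre/+ pools, again lowest in replicate 2 and highest in replicate 3 of Gfi1+/+. These genes were named after their values had been seen. Their differences between genotypes had an adjusted p-value of 0.999 in limma's test.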
